A study of Homo sapiens with 10 samples.

Results

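The genes examined here code for the machinery that prepares peptides for display on major histocompatibility complex (MHC) class I molecules. They are B2M, TAP1, TAP2, TAPBP, PSMB8, PSMB9, PSMB10, NLRC5, ERAP1 and ERAP2, 10 of the 19775 genes measured. They were chosen by name for their place in the pathway, with earlier results of these data known. Every probe set annotated to only 1 of these genes was taken, which gave 25, and 0 further probe sets named 1 of them beside another gene. A mean brightness filter at an intensity of 19.7, applied to all probe sets alike, left 14 of the 25 for testing, from 9 of the 10 genes. All 5 probe sets of ERAP2 fell below it.

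The study asked which of the early changes in gene expression that estrogen brings about in lung cancer cells begin at membrane receptors. A pair of established human lines were used, A549, an adenocarcinoma line, and HTB-182, a squamous carcinoma line that the series title calls H520. Cells of every group spent 4 h in medium with 10% stripped serum and were then exposed for 3 h to 1 of 5 conditions. These were 1 µM estradiol-BSA (the hormone linked to serum albumin) with 10 µM tamoxifen, 1 µM estradiol-BSA alone, 1 µM estradiol with 10 µM tamoxifen, 1 µM estradiol alone, and ethanol vehicle (0.1%). No group with tamoxifen alone or albumin alone was analysed here. Each line and condition was 1 array, 10 in all, and no separate cultures are stated, so p-values measure only how much the arrays vary, and technical variation cannot be told apart from lines that respond differently. The titles of the arrays with estradiol plus tamoxifen name only tamoxifen, and their source descriptions, which name both compounds, were followed.

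Class I molecules present short peptides from proteins made inside the cell to cytotoxic T cells. The peptides are cut by proteasomes, carried into the endoplasmic reticulum by the transporter formed by TAP1 and TAP2, trimmed there by the aminopeptidases ERAP1 and ERAP2, and loaded with the help of tapasin, the product of TAPBP, onto a heavy chain paired with beta-2-microglobulin, the product of B2M. PSMB8, PSMB9 and PSMB10 are the inducible catalytic subunits that replace the standard subunits PSMB5, PSMB6 and PSMB7 to form the immunoproteasome, and NLRC5 is a transcriptional activator of class I genes. Interferons induce most of the pathway, and lung cancers can lower its expression, which is known to limit recognition by T cells.

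TAP1 and PSMB9 are neighbours that are transcribed away from each other from starts 488 bases apart on chromosome 6. Their promoters are shown because these genes gave the largest differences between exposed and vehicle arrays in A549, described further on. Sequences are RefSeq promoter windows from 250 bases before to 50 bases after the start, GRCh38.p14, read 5′ to 3′ on the strand of the gene. Both strands were searched for the interferon response pair, spelled GAAA, any 2 bases, GAAA, and for a kappaB motif, spelled GGG, any 2 bases, TTTCC, and matches to either are in capitals. The TAP1 window is chr6:32853655-32853954 on the minus strand, and the PSMB9 window is chr6:32853942-32854241 on the plus strand. The windows share 13 bases at their upstream ends. TAP1, PSMB8, ERAP1 and ERAP2 have 2 annotated starts each, and the window shown for each is the one with the interferon pair.
TAP1: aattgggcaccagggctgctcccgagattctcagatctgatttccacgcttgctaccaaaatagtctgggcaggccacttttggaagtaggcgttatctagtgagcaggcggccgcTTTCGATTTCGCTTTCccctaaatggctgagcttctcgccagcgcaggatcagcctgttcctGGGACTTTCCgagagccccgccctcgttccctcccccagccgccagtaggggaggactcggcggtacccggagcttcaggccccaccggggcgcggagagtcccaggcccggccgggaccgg
PSMB9: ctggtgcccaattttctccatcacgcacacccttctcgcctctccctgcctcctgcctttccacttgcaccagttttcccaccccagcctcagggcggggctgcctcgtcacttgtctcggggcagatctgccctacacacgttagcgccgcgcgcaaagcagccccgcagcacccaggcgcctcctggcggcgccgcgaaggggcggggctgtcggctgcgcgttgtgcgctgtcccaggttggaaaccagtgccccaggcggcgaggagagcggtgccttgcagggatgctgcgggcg

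The TAP1 window held 2 overlapping interferon pairs, starting at positions -134 and -128 from the start, and 1 kappaB match at -72. The PSMB9 window held neither set of letters. The TAP1 matches lie between the starts of TAP1 and PSMB9, so they are also upstream of PSMB9, but beyond the end of its window. The interferon pair occurred in 3.57% of 35116 promoter windows of all genes. It was present in 8 of the 13 member windows and in 8 of the 9 member genes with a window, the exception being PSMB9; over all genes with a window the share was 4.38%. NLRC5 had no window in the table used. The stretches around the match are given below for the other members because this element is what their promoters share, with only the interferon pair in capitals, each on the strand of its gene. They lie at chr6:32844022-32844071 (PSMB8, minus), chr16:67936842-67936891 (PSMB10, minus), chr6:32838768-32838817 (TAP2, minus), chr6:33314063-33314118 (TAPBP, minus), chr15:44711353-44711408 (B2M, plus), chr5:96807914-96807963 (ERAP1, minus) and chr5:96876450-96876499 (ERAP2, plus).
PSMB8: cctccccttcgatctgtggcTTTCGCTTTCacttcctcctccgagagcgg
PSMB10: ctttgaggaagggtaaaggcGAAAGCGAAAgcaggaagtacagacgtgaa
TAP2: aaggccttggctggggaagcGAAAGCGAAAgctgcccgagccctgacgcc
TAPBP: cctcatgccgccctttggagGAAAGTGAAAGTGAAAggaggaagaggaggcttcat
B2M: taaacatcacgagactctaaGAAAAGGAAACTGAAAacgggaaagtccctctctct
ERAP1: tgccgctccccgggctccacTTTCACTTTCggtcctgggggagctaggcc
ERAP2: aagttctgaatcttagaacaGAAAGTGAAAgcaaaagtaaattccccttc

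The match began at -4 for PSMB8, -21 for PSMB10, -58 for TAP2, -30 for ERAP2 and +2 for ERAP1. TAPBP and B2M each held 2 overlapping matches, at -20 and -14 and at -144 and -138. The kappaB motif was found in the windows of B2M, TAP1 and TAPBP, against 1.91% of all windows. A site of the form TTCNNNGAA, the gamma-activated sequence, was in 1 window each of TAP1 and PSMB8, against 7.66% of all windows. CCAAT was in 1 window each of B2M, TAP1, PSMB9 and ERAP1, against 34.6%. The CCAAT matches of TAP1 and PSMB9 are the same site, within the 13 bases that their windows share. The letters TGACGTNA of a cyclic AMP response element were in 0 of the 13 member windows, against 3.01% of all. These matches are letters in a window, and binding was not measured.

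**Figure D1:**
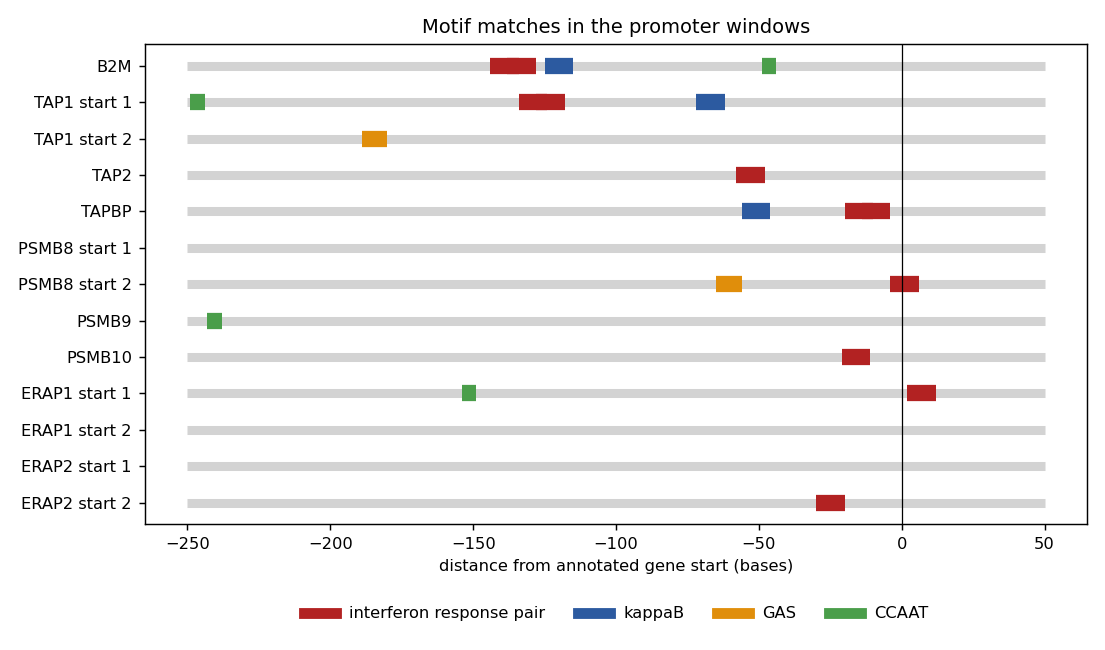
Positions of motif matches in the promoter windows of the member genes, as distance in bases from the gene start (x axis), 1 row per window. The interferon pair appears in windows of 8 of the 9 genes. The PSMB9 window, which ends short of the TAP1 interferon and kappaB matches upstream of it, holds only a CCAAT match. That CCAAT match is the same site as the one drawn for TAP1.

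Across all arrays the median intensity was 17.5 to 21.5, and the number of arrays limits the precision of every value. The lines could be told apart by markers. KRT7, a keratin of glandular epithelium, averaged 3411 ± 581 in A549 and 18.1 ± 4.37 in HTB-182 (SD, n = 5 each), and SOX2, a squamous lineage factor, 135 ± 59.6 in A549 and 4152 ± 229 in HTB-182 (SD, n = 5 each). Several other defining markers were low in both lines, among them the squamous keratins KRT14 and KRT13 and the lung factor NKX2-1, whose means were below the filter. Of the alveolar and adenocarcinoma markers, MUC1 averaged 98.8 in A549 and 25.4 in HTB-182, and NAPSA 31.2 in A549 and 22.3 in HTB-182. Of the leukocyte markers, PTPRC averaged 8.80 in A549 and 7.29 in HTB-182, also below the filter, whereas CD14 averaged 82.2 in A549 and 10.6 in HTB-182, and LYZ 9.24 in A549 and 35.9 in HTB-182. Of the endothelial and fibroblast markers, COL1A1 averaged 382 in A549 and 20.6 in HTB-182. The A549 vehicle array stood apart, with 479 probe sets that were 2-fold or more away from its line's other arrays on average, against 39 to 73 for each other A549 array and 0 to 18 for each HTB-182 array.

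A549 and HTB-182 differed in most of the pathway's steps, in both directions. Aminopeptidase ERAP1, the subunit PSMB8, B2M and PSMB10 were lower in A549 by their brightest probe sets, and TAPBP was higher. TAP1, TAP2, PSMB9 and NLRC5 did not pass the test by theirs. In limma, 9 of the 14 tested member probe sets passed an adjusted p of 0.05 for A549 minus HTB-182, 2 higher and 7 lower, while 63.8% of all 23144 tested probe sets passed, 31.5% higher and 32.3% lower. The share of members that passed was thus close to that of all probe sets. The median difference was -0.22 on the log2(intensity + 16) scale over the member probe sets and 0.01 over all.

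ERAP1, which trims peptide ends in the endoplasmic reticulum, showed the largest line difference of the members. Its brightest probe set (209788_s_at) read 96.6 with estradiol-BSA plus tamoxifen, 113 with estradiol-BSA, 114 with estradiol plus tamoxifen, 77.4 with estradiol and 113 with vehicle in A549, against 528, 510, 432, 410 and 508 in HTB-182 in the same order. All A549 arrays lay far below all HTB-182 arrays. The difference was -2.06 ± 0.10 (log2, SE, 5 pairs of arrays), 4.17-fold lower in A549, with a limma adjusted p of 1.09e-08. A second probe set (210385_s_at) averaged 24.1 ± 6.69 in A549 and 72.2 ± 8.60 in HTB-182 (SD, n = 5 each), 2.22-fold lower with a limma adjusted p of 6.69e-06. The third (209701_at) went the other way, at 37.7 ± 8.92 in A549 and 21.6 ± 3.23 in HTB-182 (SD, n = 5 each), 1.42-fold higher with a limma adjusted p of 0.0016. The probe sets of ERAP1 therefore disagree on its direction, and the transcripts each one reads were not resolved. ERAP2, the partner that trims other peptide ends, stayed at or below 11.9 on every array in all 5 of its probe sets, so a difference was not measurable at this signal.

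TAPBP, whose product tapasin bridges the transporter and the class I molecule, was the member gene that was higher in A549 by its brightest probe set (208829_at). It read 182 with estradiol-BSA plus tamoxifen, 156 with estradiol-BSA, 190 with estradiol plus tamoxifen, 221 with estradiol and 262 with vehicle in A549, against 88.3, 90.6, 78.3, 74.7 and 84.8 in HTB-182 in the same order. The lines did not overlap. The difference was 1.12 ± 0.13 (log2, SE, 5 pairs), 2.17-fold higher, with a limma adjusted p of 1.26e-05. The dimmer probe set (1555565_s_at) averaged 46.2 ± 8.08 in A549 and 38.1 ± 1.33 in HTB-182 (SD, n = 5 each), higher in 5 of 5 pairs, with a limma adjusted p of 0.101; its difference of 0.19 (log2) became 0.12 without either vehicle array.

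Of the immunoproteasome subunits, PSMB8 was lower in A549 on every array. It read 95.1 with estradiol-BSA plus tamoxifen, 91.4 with estradiol-BSA, 93.0 with estradiol plus tamoxifen, 117 with estradiol and 128 with vehicle in A549, against 204, 201, 207, 192 and 190 in HTB-182 in the same order. The groups did not overlap, and the difference was -0.84 ± 0.11 (log2, SE, 5 pairs), 1.79-fold lower, with a limma adjusted p of 4.9e-05. PSMB10 read 202, 209, 232, 279 and 332 in A549, against 318, 331, 321, 335 and 290 in HTB-182, in the same order of conditions. It was lower in A549 in 4 of 5 pairs and higher in the vehicle pair, so the lines overlapped. The difference of -0.35 ± 0.13 (log2, SE) had a limma adjusted p of 0.0308, and without any single one of the 8 exposed arrays the adjusted p was 0.057 to 0.117.

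PSMB9, the subunit encoded next to TAP1, read 57.6 with estradiol-BSA plus tamoxifen, 57.7 with estradiol-BSA, 59.0 with estradiol plus tamoxifen, 81.0 with estradiol and 109 with vehicle in A549, against 59.9, 55.9, 58.7, 54.4 and 52.8 in HTB-182 in the same order. The lines overlapped, with the A549 vehicle and estradiol arrays above all others. The line difference of 0.26 ± 0.14 (log2, SE) had a limma adjusted p of 0.12. It was 0.86 in the vehicle pair, and 0.115 (log2) without either vehicle array. Of the standard subunits, 3 of 3 were higher in A549, with limma adjusted p of 2.04e-05 for PSMB6 (1.44-fold), 0.000264 for PSMB5 (1.38-fold) and 0.00564 for PSMB7 (1.21-fold). Over all probe sets 31.5% were called higher and 32.3% lower.

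For the transporter, TAP1 read 151 with estradiol-BSA plus tamoxifen, 169 with estradiol-BSA, 168 with estradiol plus tamoxifen, 179 with estradiol and 264 with vehicle in A549, against 171, 162, 164, 143 and 146 in HTB-182 in the same order. The A549 vehicle array was the highest and the other arrays of the lines overlapped. The line difference was 0.20 ± 0.14 (log2, SE) with a limma adjusted p of 0.221, and it was 0.054 without either vehicle array. TAP2 by its probe set 225973_at read 60.1, 63.0, 60.5, 68.3 and 103 in A549, against 84.2, 70.9, 72.5, 79.3 and 71.8 in HTB-182, in the same order. For this probe set only the vehicle array of A549 was above those of HTB-182. The difference of -0.10 ± 0.13 (log2, SE) had a limma adjusted p of 0.528, and it was -0.23 without either vehicle array. The TAP2 probe set 204769_s_at did pass, at 59.5 ± 9.41 in A549 and 85.8 ± 15.9 in HTB-182 (SD, n = 5 each), 1.34-fold lower with a limma adjusted p of 0.00886.

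B2M, the invariant light chain of every class I molecule, was high in both lines. Its brightest probe set (201891_s_at) read 4085 with estradiol-BSA plus tamoxifen, 4252 with estradiol-BSA, 4028 with estradiol plus tamoxifen, 3485 with estradiol and 3412 with vehicle in A549, against 5038, 4923, 4953, 4890 and 4997 in HTB-182 in the same order. Every A549 array was below every HTB-182 array. The difference of -0.37 ± 0.058 (log2, SE, 5 pairs), 1.29-fold lower, had a limma adjusted p of 0.000154, and the other probe set (216231_s_at) gave 1.28-fold lower with a limma adjusted p of 9.6e-05. NLRC5, near the filter, averaged 22.3 ± 1.71 in A549 and 25.0 ± 2.80 in HTB-182 (SD, n = 5 each), with overlap and a limma adjusted p of 0.277.

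**Figure D2:**
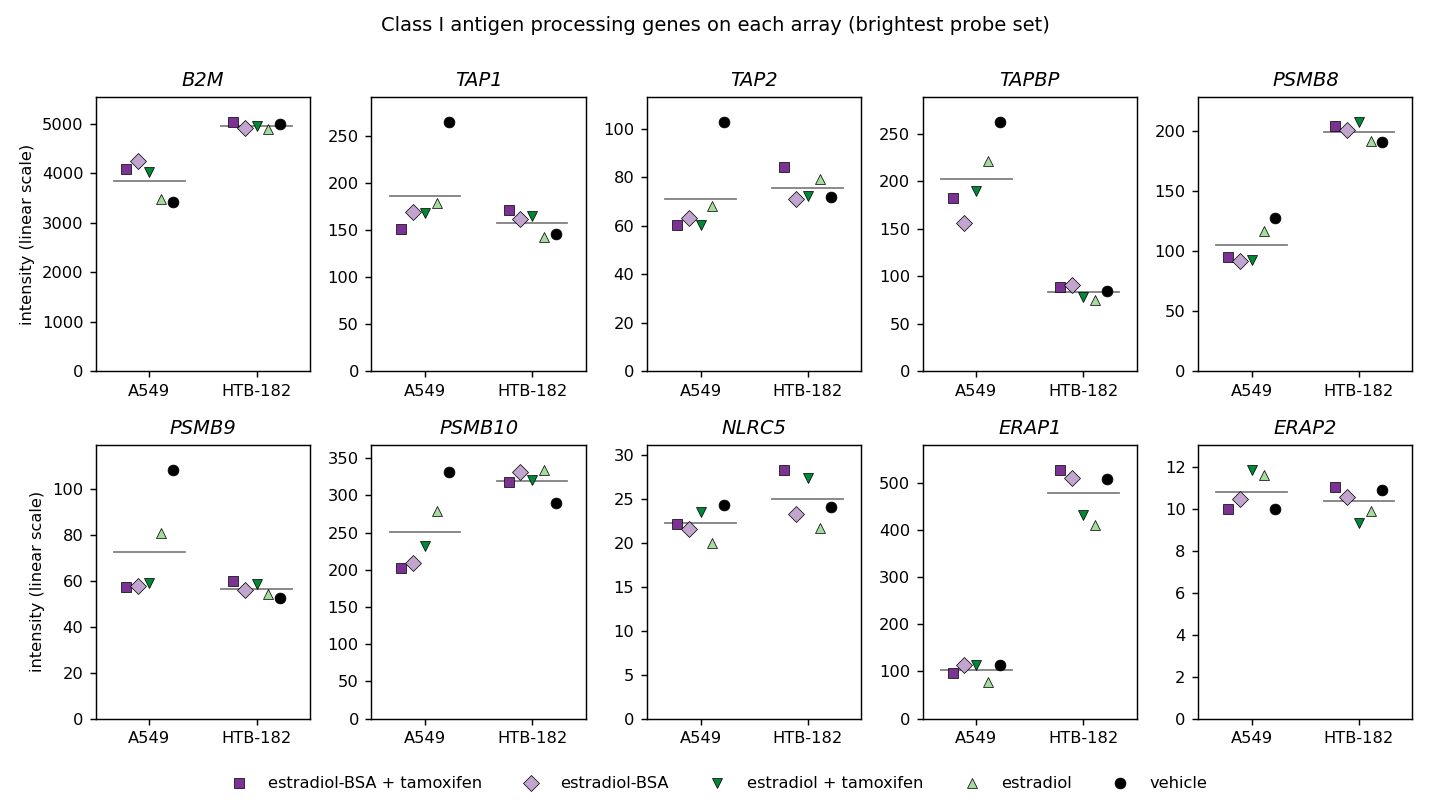
Intensity (linear y axis from 0) of the brightest probe set of each of the 10 genes on each of the 10 arrays, A549 left and HTB-182 right, with symbols for the treatment and a grey line at the mean of the line's 5 arrays. The lines separate fully for B2M, TAPBP, PSMB8 and ERAP1, and the A549 vehicle array is the highest A549 array for TAP1, TAP2, TAPBP, PSMB8, PSMB9, PSMB10 and NLRC5.

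By rank of all arrays, 2 of the 14 member probe sets lay wholly above HTB-182 in A549 and 6 lay wholly below. Over all probe sets these shares were 27.9% and 27.7%. The 2 above were TAPBP 208829_at and ERAP1 209701_at.

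Genes that work with the members differed between the lines in both directions as well. For each list below, the shares over all probe sets were 31.5% called higher and 32.3% lower. Of the class I heavy chains, 5 of 6 were measured and tested, 1 was higher and 1 lower in A549. HLA-E, which presents leader peptides to natural killer cell receptors, averaged 462 ± 76.6 in A549 and 152 ± 13.0 in HTB-182 (SD, n = 5 each), 2.83-fold higher with a limma adjusted p of 1.29e-07. HLA-B, a classical heavy chain, averaged 263 ± 52.8 in A549 and 450 ± 50.4 in HTB-182 (SD, n = 5 each), 1.69-fold lower with a limma adjusted p of 0.00027. The differences of HLA-C (-0.27, adjusted p = 0.0781) and HLA-F (0.12, adjusted p = 0.405) did not pass in limma. Heavy chain genes are close copies of each other, so their probe sets may read more than 1 of them.

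Of 7 genes of peptide loading and folding, HSPA5, a chaperone of the endoplasmic reticulum, was higher in A549 (1.82-fold, limma adjusted p = 4.34e-06), and the lectin chaperone CANX (1.26-fold) and the oxidoreductase PDIA3 (1.29-fold) were lower (limma adjusted p of 8.6e-05 and 0.000892). Of 7 tested cytosolic peptidases, which cut or destroy peptides before transport, 2 were higher and 4 lower in A549. The lower ones were BLMH (2.16-fold), THOP1 (2.04-fold), LAP3 (1.64-fold) and TPP2 (1.58-fold). Of 6 tested proteasome activators and assembly factors, 1 was lower, PSME4 (2.39-fold, limma adjusted p = 2.14e-07), and 1 was higher, the assembly chaperone PSMG2 (1.19-fold, limma adjusted p = 0.0324). These counts stand against 31.5% called higher and 32.3% lower over all probe sets.

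Of the list of interferon signalling and class I transcription, 19 of 21 genes were measured and 17 tested, 6 being higher and 5 lower in A549, close to the shares of 31.5% and 32.3% over all probe sets. JAK1, a kinase of all interferon receptors, averaged 1894 ± 222 in A549 and 176 ± 10.2 in HTB-182 (SD, n = 5 each), 9.92-fold higher with a limma adjusted p of 1.45e-10. IFNGR1, the ligand-binding chain of the interferon gamma receptor, was 1.86-fold higher (limma adjusted p = 4.52e-06). RFXAP and NFYC, subunits of the complexes that bind MHC promoters, were 4.24-fold and 2.46-fold lower (limma adjusted p of 1.31e-07 and 1.15e-06). Of the class II pathway, 3 of 8 genes passed the brightness filter. HLA-DMB averaged 582 ± 59.9 in A549 and 17.2 ± 4.09 in HTB-182, and the protease CTSS 192 ± 66.4 in A549 and 14.5 ± 1.71 in HTB-182 (SD, n = 5 each). Both passed the filter only through A549 and so had to differ, and no fold is given against values below it.

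**Figure D3:**
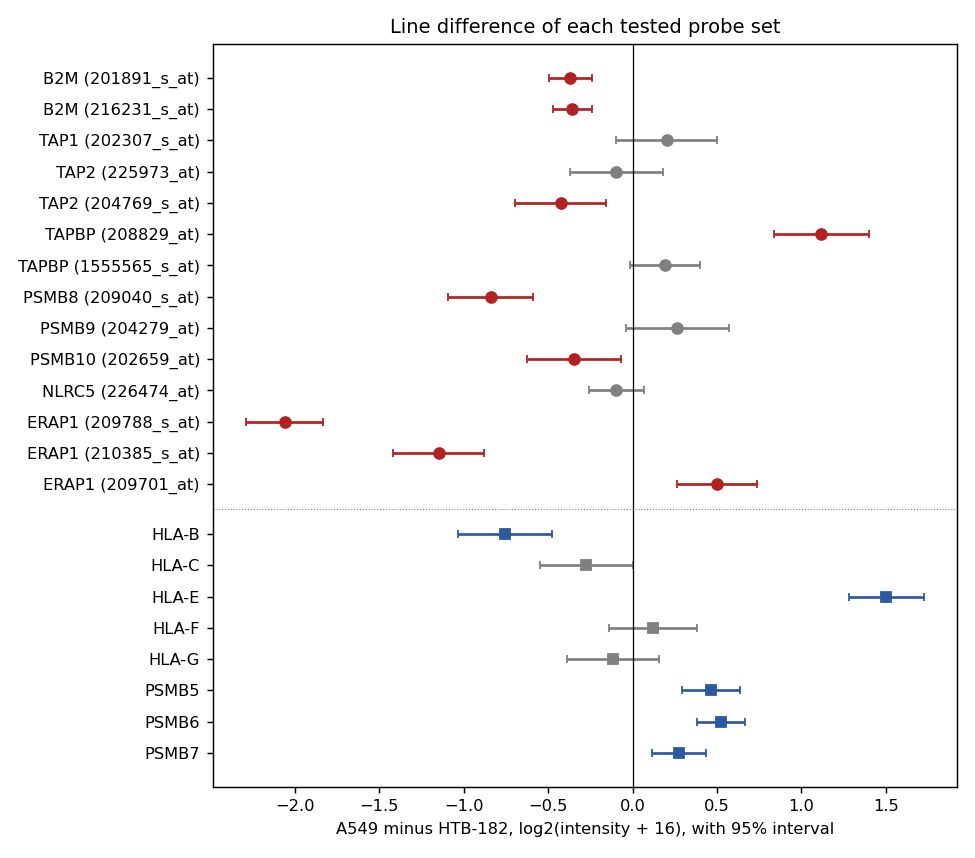
A549 minus HTB-182 difference on the log2(intensity + 16) scale (x axis) with its 95% interval for the 14 tested member probe sets (circles, top) and for the standard proteasome subunits and class I heavy chains (squares, bottom). Coloured symbols passed a limma adjusted p of 0.05, and grey ones did not.

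Against vehicle, no member passed the test of a change common to both lines. For each of the 4 treatments 0 of the 14 member probe sets passed limma's adjusted p of 0.05, and 0% of all probe sets passed. At an unadjusted p under 0.05, estradiol-BSA plus tamoxifen had 0 members (2024 probe sets over all), estradiol-BSA 0 (1569), estradiol plus tamoxifen 0 (1080) and estradiol 1 (1117), which was ERAP1 209788_s_at at -0.38 ± 0.16 (log2, SE, adjusted p = 0.899). Median member differences were -0.16, -0.14, -0.13 and -0.11 in that order, against -0.07, -0.07, -0.06 and -0.05 over all probe sets. All 4 comparisons share the same 2 vehicle arrays. Without the HTB-182 vehicle array, when the A549 vehicle array stands alone, 3 of 14 members were called lower with estradiol-BSA plus tamoxifen, 2 with estradiol-BSA and 1 with estradiol plus tamoxifen, while 12.8%, 11.7% and 9.29% of all probe sets were called. Without the A549 vehicle array, 0 were called.

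Within A549, where each condition is 1 array and no test can be made, most members had their highest level with vehicle. All 4 exposed arrays were below vehicle for 9 of the 14 member probe sets, or 64.3%, and this held for 46.8% of all probe sets. All 4 were above for 3 members, B2M 201891_s_at, TAP2 204769_s_at and ERAP1 210385_s_at, against 18.1% of all. The mean of the 4 exposed arrays was at least 1.25-fold below vehicle for 8 of 14 members, against 26.9% of all. The median difference was -0.33 (log2) over member probe sets and -0.14 over all, and the shift of all probe sets became -0.08 after scaling to equal trimmed means and -0.04 after quantile normalization. The members' median became -0.26 and -0.21 under these scalings. Under either scaling 8 members stayed below vehicle on all 4 arrays, against 40.1% and 36.6% of all probe sets.

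The members furthest below vehicle in A549 were PSMB9 (-0.65, 1.57-fold), TAP1 (-0.62, 1.54-fold), TAP2 225973_at (-0.59, 1.51-fold) and PSMB10 (-0.51, 1.42-fold), as exposed mean minus vehicle on the log2 scale. TAPBP 208829_at was at -0.46 and PSMB8 at -0.33. B2M lay on the other side by its brightest probe set, at 0.21, with all 4 exposed arrays above vehicle. The other tested B2M probe set, 216231_s_at, was at -0.049, with 3 of 4 exposed arrays below vehicle. TAP2 204769_s_at was at 0.33, opposite in sign to 225973_at. For PSMB9, PSMB10, TAP1 and TAP2 225973_at estradiol alone was the exposed array nearest to vehicle. The other 3 exposures of PSMB9 were level with each other, and those of PSMB10 ran from 202 to 232. All 4 exposed arrays ran from 151 to 179 for TAP1 and from 60.1 to 68.3 for TAP2 225973_at. These values rest on the A549 vehicle array, which stood apart across the table as given above. On that array the summed intensity of the squamous markers was 111, the lowest of an A549 range of 111 to 265, and that of the alveolar and adenocarcinoma markers 4407, the highest of 3038 to 4407. The latter sum was mostly KRT7, which read 4190 on that array. Among the squamous markers SOX2 alone ran from 36.1 to 192 over the A549 arrays. Leukocyte markers summed to 168 there, within 114 to 196, and endothelial and fibroblast markers to 561, within 393 to 592. The part of these shifts in the members' values was not tested.

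In HTB-182 the members lay close to vehicle. PSMB8, PSMB9 and PSMB10 were above vehicle on all 4 exposed arrays, by 0.07, 0.09 and 0.16 (log2), and 0 members were below on all 4, against 24% and 17.8% of all probe sets. The same 3 subunits were those below vehicle on all A549 exposed arrays and above it on all HTB-182 exposed arrays, 3 of 14 members against 12.6% of all probe sets. In HTB-182 the exposed mean was 1.25-fold or more above vehicle for 0 members and as far below for 0, against 1.08% and 2.03% of all probe sets.

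Whether the exposed-minus-vehicle difference itself differed between the lines was tested with a cell line by exposure term. None of the 14 member probe sets passed limma's adjusted p of 0.05, against 3.38% of all probe sets, 2.33% higher and 1.05% lower. An unadjusted p under 0.05 was reached by 4 of 14 members and by 5106 of 23144 probe sets over all. These 4 were PSMB9 (-0.74 ± 0.25, A549 minus HTB-182, log2, SE; limma adjusted p = 0.117), TAP1 (-0.74 ± 0.24, 0.104), PSMB10 (-0.67 ± 0.22, 0.113) and TAP2 225973_at (-0.67 ± 0.23, 0.123). TAPBP 208829_at was at -0.43 ± 0.27 with a limma adjusted p of 0.355 and PSMB8 at -0.40 ± 0.24 with 0.338. TAP2 204769_s_at had the opposite sign to 225973_at, at 0.12 ± 0.28 with a limma adjusted p of 0.828. The same 4 passed when either estradiol array was left out, with adjusted p of 0.0182 to 0.0491, but calls over all probe sets also went up, to 15.1% without the A549 array and 15% without the HTB-182 array. Each line has 1 vehicle array, whose spread is assumed equal to that of the others. Of the pathway lists, HSPA5 passed in the opposite direction (0.59, limma adjusted p = 0.0158), and of the marker lists SOX2 did (1.82, limma adjusted p = 0.000271). SOX2 read 36.1 on the A549 vehicle array, the lowest of an A549 range of 36.1 to 192, and its part in the members' values was not tested.

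**Figure D4:**
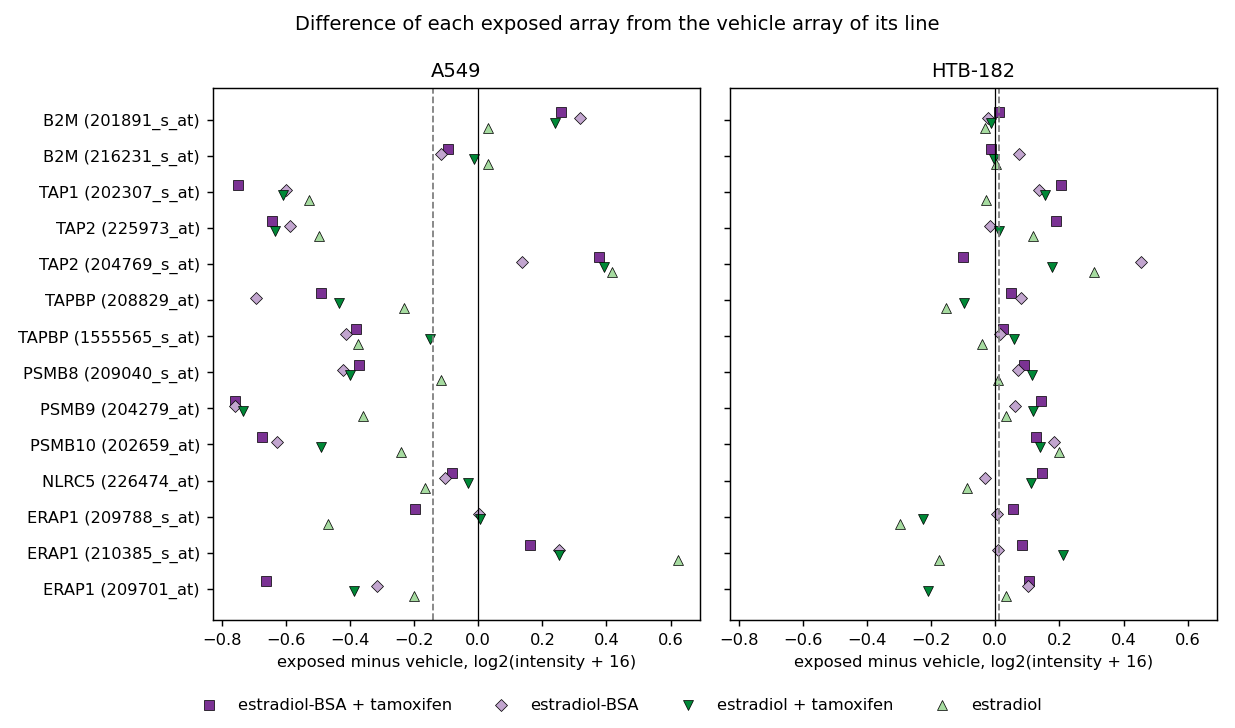
Exposed array minus vehicle array of the same line on the log2(intensity + 16) scale (x axis) for the 14 tested member probe sets, A549 left and HTB-182 right, with 1 symbol per treatment and a dashed line at the median of all tested probe sets. In A549 the symbols of 9 probe sets lie wholly below 0, and in HTB-182 those of PSMB8, PSMB9 and PSMB10 lie wholly above it.

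Estradiol-BSA and estradiol, the protein conjugate and the free estrogen, each at 1 µM for 3 h, were compared over 4 pairs of arrays. The p-values were adjusted over all probe sets. None of the 14 members passed in limma, against 0.00432% of all probe sets, and the smallest member adjusted p was 1, with 0 members and 876 probe sets at an unadjusted p under 0.05. PSMB10 was lower with the conjugate in 4 of 4 pairs, at -0.15 (log2, 95% interval -0.46 to 0.16), and B2M 201891_s_at higher in 4 of 4, at 0.085 (-0.057 to 0.23). The other tested B2M probe set, 216231_s_at, was lower in 3 of 4, at -0.041 (-0.17 to 0.088). For TAP1 the difference was 0.0015 (-0.33 to 0.34) and for PSMB9 -0.093 (-0.43 to 0.25). The intervals leave room for differences of either sign in all of these genes. Within A549, without tamoxifen, the differences of 1 array against 1 that were furthest from 0 among the tested members were 0.47 for ERAP1 209788_s_at and -0.46 for TAPBP 208829_at, followed by -0.40 for PSMB9 and -0.39 for PSMB10. In the same pair ERAP1 210385_s_at was at -0.37, ERAP1 209701_at at -0.11 and TAPBP 1555565_s_at at -0.037.

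For tamoxifen added to either estrogen form, over 4 pairs, 0 of 14 members passed in limma, against 0% of all probe sets. The smallest member adjusted p was 1, and 0 members and 392 probe sets had an unadjusted p under 0.05. NLRC5 was higher with tamoxifen in 4 of 4 pairs, at 0.13 (log2, 95% interval -0.046 to 0.31), and PSMB10 lower in 4 of 4, at -0.10 (-0.41 to 0.21). TAPBP 1555565_s_at was higher in 4 of 4, at 0.091 (-0.14 to 0.32), and the brighter 208829_at in 2 of 4, at 0.0073 (-0.31 to 0.32). TAP1, PSMB9 and ERAP1 210385_s_at were lower with tamoxifen in both A549 pairs and higher in both HTB-182 pairs, 3 of 14 members against 7.87% of all probe sets. The cell line by tamoxifen term passed for 0 of 14 members and 0% of all probe sets, with a smallest member adjusted p of 0.984 in limma (0 members and 484 probe sets at an unadjusted p under 0.05).

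Likeness of pattern was measured as Pearson's r over the 10 arrays after each line's mean was removed, as a description, with no p. For TAP1 and PSMB9 the A549 vehicle array lay farthest from its line mean, so it weighs most in these values. TAP1 was nearest to MYL6B (r = 0.991), ZNF185 (0.988) and CEP70 (0.986), and PSMB9 to SNUPN (0.998), OGFOD2 (0.997) and TMEM9 (0.993). Among the members, PSMB8 and PSMB9 had r = 0.975 and TAP1 and PSMB9 had r = 0.915. Not all members ran together. By its brightest probe set B2M had r = -0.932 with PSMB8, -0.908 with PSMB9 and -0.929 with PSMB10, and ERAP1 had r = -0.0729 with PSMB9.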

How the data were processed

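RNA was measured on Affymetrix arrays, 1 per line and treatment. The authors deposited 1 table of linear intensity values for 54675 probe sets. Per the submitters' processing notes, MAS5 was used. Its version is not given in the sources used here, nor is a scaling target. Trimmed means (2% off each end) were 106 to 116 per array. The values were used as log2(intensity + 16), so folds understate changes of dim genes. The platform annotation gave 1 gene to 41091 probe sets, several to 1801 and none here to 11721, besides 62 controls, and RefSeq matched 41043 with 0 changes of symbol. Of the 1-gene probe sets, those with a mean at or above the median over all (intensity 19.7) were tested, 23144 from 12979 genes, with limma 3.58.1 in R 4.3.3 and Benjamini-Hochberg adjustment. The additive model of line and treatment left 4 residual degrees of freedom, and models with a line by tamoxifen or line by exposure term left 3. A gene is represented by its brightest probe set. The rule for names takes the 10 genes and up to 4 genes of largest line difference per list; dim probe sets are given by range or count. The members and lists were chosen with earlier results of these data known. The fits were tested on simulated data. Within a line, exposed minus vehicle values carry no test. Pairing comes from the cell line or the treatment, which stand in every model.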

Additional observations from a re-analysis of the deposited data

Results flagged for a closer look

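Some arrays stood apart from the other 4 of their line by Dixon's criterion, which chance passes in about 1 in 20 groups. It was passed in 7 of the 50 groups checked (25 probe sets in 2 lines), and the arrays of a group differ in treatment. Among tested probe sets these were TAP2 225973_at in A549 with vehicle (103, next 68.3) and B2M 216231_s_at in HTB-182 with estradiol-BSA (3983, next 3789). The other 5 were dim probe sets: B2M 232311_at in HTB-182 with estradiol (14.5), TAP2 204770_at in HTB-182 with estradiol plus tamoxifen (21.1), and ERAP2 probe sets in A549 with estradiol plus tamoxifen (9.67), in A549 with estradiol-BSA (10.4) and in HTB-182 with vehicle (5.59).

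The immunoproteasome subunits went opposite ways in the lines when exposed arrays were set against vehicle. The mean difference was -0.65 in A549 and 0.09 in HTB-182 for PSMB9, -0.51 in A549 and 0.16 in HTB-182 for PSMB10, and -0.33 in A549 and 0.07 in HTB-182 for PSMB8 (log2). The line by exposure term gave limma adjusted p of 0.117, 0.113 and 0.338 for these genes, so no difference passed. Lower in all 4 A549 arrays and higher in all 4 HTB-182 arrays were 3 of 14 members, against 12.6% of all probe sets. Each A549 difference is taken from 1 vehicle array, which had 479 probe sets 2-fold or more from its line's other arrays on average. With tamoxifen added to estrogen, TAP1 was at -0.12 in A549 and 0.13 in HTB-182, PSMB9 at -0.19 in A549 and 0.08 in HTB-182, and ERAP1 210385_s_at at -0.23 in A549 and 0.23 in HTB-182. This was 3 of 14 members, against 7.87% of all probe sets, and the line by tamoxifen term gave limma adjusted p of 0.984 for each.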

How the results depend on the processing

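For A549 minus HTB-182, 9 of 14 members and 63.8% of all probe sets (14762) were called. With 1 probe set per gene it was 5 of 9 members and 65.7% of all (8526). Without any single array it was 8 to 9 of 14 members and 58.2% to 65.1% of all (13468 to 15073). PSMB10 was the 1 member that lost its call, without any of the 8 exposed arrays; other calls held under every alternative that kept their probe set. No paired analysis by replicate number was possible because every line and treatment has 1 array, so the pairing is the block of line and treatment; without this block the probe sets called for estradiol-BSA minus estradiol became 0, as they did with no filter, equal trimmed means and quantile normalization, while the other counts stayed within 1.5 times. Leaving out single arrays gave 0 to 2 for that comparison and 0 to 7 for line by tamoxifen. The same gave 0 to 2967 probe sets and 0 to 3 members for estradiol-BSA plus tamoxifen, 0 to 2716 and 0 to 2 for estradiol-BSA, 0 to 2150 and 0 to 1 for estradiol plus tamoxifen, and 0 to 1454 and 0 for estradiol against vehicle, each highest without the HTB-182 vehicle array. For line by exposure it gave 1.94% to 15.1% of all probe sets (448 to 3502) and 0 to 4 of 14 members, and no estimate without a vehicle array. With the vehicle array of HTB-182 left out, and then that of A549, differences from vehicle became -0.640 and 0.0983 (TAP1), -0.609 and 0.0616 (PSMB10) and -0.680 and 0.0617 (PSMB9) with estradiol-BSA plus tamoxifen, -0.718 and 0.0237 (PSMB9) and -0.635 and 0.0308 (TAP2) with estradiol-BSA, and -0.645 and 0.0204 (TAP2) with estradiol plus tamoxifen. The line by exposure value of ERAP1 turned to 0.0389 with equal trimmed means and 0.0929 with quantile normalization, and ran from -0.141 to 0.0194 over single arrays left out. That of NLRC5 in A549, exposed minus vehicle, turned to 0.0229 with quantile normalization, an alternative chosen after seeing the data. The cause of these changes was not tested. With 1 array per line and treatment, changes in 1 line cannot be told from spread between arrays, and probe sets near 19.7 carry little signal.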

Other observations

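With no filter on brightness, 3 of the 11 member probe sets that the filter leaves out passed the line comparison, against 18.7% of all probe sets it leaves out. TAPBP 210294_at (0.22, limma adjusted p = 0.00434) and ERAP1 214012_at (0.28, 0.00473) were higher in A549, and TAP2 204770_at (-0.20, 0.0235) was lower. TAPBP and TAP2 thus went the same way as their brighter called probe sets. The 5 ERAP2 probe sets ranged from -0.05 to 0.06, with limma adjusted p of 0.118 to 0.732.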
